A study of Mus musculus with 2 samples.

Results

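Phospholipases A2 cleave a fatty acid from the middle position of membrane phospholipids and leave a lysophospholipid behind, and the carboxylesterase Ces1d hydrolyses ester lipids such as triglycerides. The mRNA levels of 6 phospholipase A2 genes (Pla2g5, Pla2g12a, Pla2g4a, Pla2g6, Pla2g7 and Pla2g15) and of Ces1d were compared between hearts that lacked Med1 in cardiomyocytes and control hearts. These 7 genes, of 22882 gene symbols measured, were selected by symbol with their change between the genotypes already known. Their values are therefore given as a description, with no test.

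Heart RNA came from Med1fl/fl mice, in which exons of Med1, a subunit of the Mediator coactivator complex, are flanked by loxP sites, and from csMed1-/- mice, which carry the same floxed alleles and the α-MyHC-Cre transgene. The α-myosin heavy chain promoter drives Cre in cardiomyocytes, so other cells of the heart keep Med1. All mice were 23 days old, of both sexes and of C57BL6/J background. The RNA of 5 hearts per genotype was combined and sequenced as 1 library, so there are no replicates, and neither an error nor a p-value can be given for any gene. FPKM values relate the fragments of a gene to its transcript length and to the mapped fragments of the library, so levels of different genes can be compared per length. Fold changes are plain ratios of csMed1-/- to Med1fl/fl FPKM.

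The fatty acid that a phospholipase A2 releases is often arachidonic acid, from which cyclooxygenases and lipoxygenases make prostaglandins, thromboxane and leukotrienes. Secreted phospholipases A2 act outside cells or at the cell surface, the cytosolic enzymes act at internal membranes, and other relatives work in lysosomes, in phospholipid remodelling, or on platelet-activating factor (PAF), a signalling phospholipid. Ces1d belongs to a serine hydrolase family best known in liver and adipose tissue, where it takes part in turnover of stored triglyceride.

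Med1 itself stood at 3.38 FPKM in the Med1fl/fl library and at 0.412 FPKM in the csMed1-/- library, a ratio of 0.122, which agrees in direction with the labels. The FPKM of all rows summed to 780366 and 716365, and 9965 and 9742 genes reached 1 FPKM in the Med1fl/fl and csMed1-/- library, respectively. Read counts are not in the files used here, so absolute depth and the precision of each value are unknown. A gene was kept when neither library listed it at 0 and the higher value reached 1 FPKM, and the 10489 genes kept had a median log2 ratio of -0.07 and quartiles of -0.72 and 0.55. An exact 0 can be a failed estimate: Actc1, a main actin of cardiac muscle, was listed at 0 in the Med1fl/fl library and at 9189 FPKM in the csMed1-/- library. Of the cardiomyocyte markers analysed, 5 of 6 kept were lower by more than 2-fold, with log2 ratios from -3.78 to -0.36 over the 6. Among them, Tnnt2 was at 2280 and 1119 FPKM and Pln at 771 and 56.2 FPKM. Both libraries thus hold abundant cardiomyocyte RNA, with markers at different levels. The paper itself lists Pln and Ryr2, another of these markers, among its down-regulated genes. In bulk heart RNA, fewer cells of a type, less RNA per cell and a change in the marker genes themselves cannot be told apart.

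Of the 7 genes, 6 were kept. Pla2g5 and Ces1d were lower by more than 2-fold in csMed1-/- hearts, 0 were higher past the same threshold, and the other 4 lay within it, with a median log2 ratio of -0.21 over the 6. Among all kept genes 18.0% were lower and 13.6% were higher by more than 2-fold. Because the genes were selected with this contrast known, nothing is read from the share. The paper, from the same libraries, also lists Pla2g5 and Ces1d among its down-regulated genes.

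**Figure D1:**
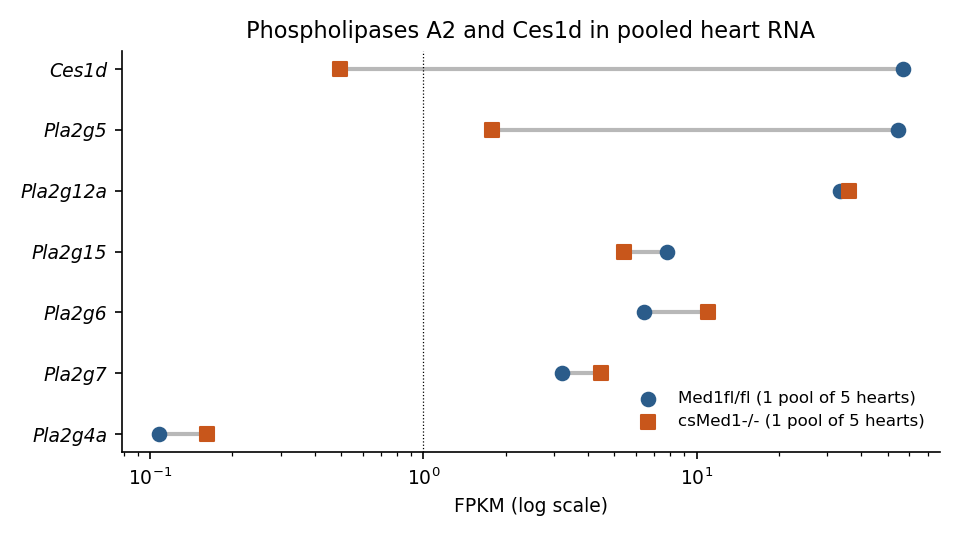
FPKM of the 7 genes (log axis) in the Med1fl/fl pool (circles) and the csMed1-/- pool (squares), each 1 library from 5 hearts, with the dotted line at 1 FPKM. Ces1d and Pla2g5 stand above 50 FPKM in the control pool and at 0.497 and 1.78 FPKM in the csMed1-/- pool, whereas the other 5 genes keep their squares close to their circles.

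Pla2g5 encodes the group V secreted phospholipase A2, a small calcium-dependent enzyme that is expressed in heart and acts on phosphatidylcholine-rich membranes. The gene lies on the minus strand (chr4:138799244-138863482, GRCm38, the assembly also called mm10). RefSeq gives it 2 start sites 44212 bases apart, and a gene-level FPKM does not show which of them was used. The 250 bases before each start are shown because Pla2g5 is the phospholipase A2 with the largest difference of the 6 and its start regions differ from each other in sequence (RefSeq, GRCm38.p6, minus strand). In the upstream region, chr4:138863470-138863719, capitals mark 3 exact copies of a 23-base unit. The copies run from -93 to -71, from -76 to -54 and from -34 to -12 relative to the start, and the first 2 share 6 bases. In the downstream region, chr4:138819258-138819507, capitals mark 4 matches to GATAA on either strand, at -160, -105, -84 and -67.
Pla2g5 upstream start: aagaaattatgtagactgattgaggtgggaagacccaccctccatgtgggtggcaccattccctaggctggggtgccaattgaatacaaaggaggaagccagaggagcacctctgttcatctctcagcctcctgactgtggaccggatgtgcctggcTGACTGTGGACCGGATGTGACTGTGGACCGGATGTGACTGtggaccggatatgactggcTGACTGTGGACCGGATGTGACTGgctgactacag
Pla2g5 downstream start: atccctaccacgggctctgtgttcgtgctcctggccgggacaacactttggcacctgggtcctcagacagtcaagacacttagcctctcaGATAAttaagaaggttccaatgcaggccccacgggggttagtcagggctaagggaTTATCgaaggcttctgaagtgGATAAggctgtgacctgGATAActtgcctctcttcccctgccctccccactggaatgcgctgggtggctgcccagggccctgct

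A unit of 23 bases stood at least 3 times in 284 of 32851 RefSeq mouse promoters of 300 bases (0.865%), and 1 promoter, that of Pla2g5, held this unit 3 times. Motifs were searched on both strands. GATAA, the core recognised by GATA factors, was present at least once in 25.4% of promoters and at least 4 times in 67 of them (0.204%). It also stood 2 times in the Pla2g6 window and in 1 of the Pla2g4a windows, and 1 time each in those of Pla2g12a and Pla2g15. AGGTCA, the hexamer that nuclear receptors bind, occurred in 16.3% of promoters. It was found once in the downstream Pla2g5 region, as TGACCT at -74, and once in the other Pla2g4a window. A direct repeat of that hexamer with a 1-base spacer (DR1, with up to 2 mismatches) was in 3.86% of promoters and in 0 of the 8 promoter windows matched to 6 of the 7 genes, all but Ces1d. Matches of this kind describe letters in a window and not bound sites. The 23-base unit length and the cut of 4 GATAA copies equal what the Pla2g5 regions held, so those shares are no test of rarity.

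Pla2g5 stood at 54.3 FPKM in the Med1fl/fl library and at 1.78 FPKM in the csMed1-/- library. That is a ratio of 0.0327, or 30.6-fold lower, with a log2 ratio of -4.93, and 19.9-fold lower with a pseudocount of 1 FPKM. Among the 10489 kept genes 33 had a lower ratio, and among the 1828 kept genes whose control level was within 2-fold of that of Pla2g5, 4 did. In rank by level, Pla2g5 went from place 1596 in the control library to place 8544 in the csMed1-/- library. The 3 genes whose pair of levels lay nearest to it, by distance on log2 axes over 2 libraries, were Lrrc3b (46.4 and 2.15 FPKM), the apelin receptor gene Aplnr (46.6 and 2.41 FPKM) and Cmbl (48.5 and 2.54 FPKM).

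Pla2g12a encodes the group XIIA secreted phospholipase A2, a distant relative of the other secreted enzymes with low catalytic activity in vitro. It was measured at 33.3 FPKM in the Med1fl/fl library and at 36.1 FPKM in the csMed1-/- library, a log2 ratio of 0.11. The make-up of the secreted family therefore differed between the libraries. Pla2g5 made up 61.2% of the summed FPKM of the 11 secreted phospholipase A2 genes in the control library and 4.64% in the csMed1-/- library, while Pla2g12a made up 37.6% and 94.2%. The summed level of the 11 genes was 88.7 FPKM in control and 38.3 FPKM in csMed1-/-, a ratio of 0.431.

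The other secreted phospholipase A2 genes were listed under 1 FPKM in both libraries. Pla2g5 sits in a gene cluster on chromosome 4 with Pla2g2c, Pla2g2d, Pla2g2e and Pla2g2f, and none of the 4 neighbours reached 1 FPKM. Pla2g2f, which lies 41618 bases from Pla2g5, was listed at 0.549 FPKM in control and 0.0143 FPKM in csMed1-/-. Pla2g2d, at a distance of 17198 bases, was at 0.301 and 0.108 FPKM. Pla2g2c was at 0.0429 and 0.0157 FPKM and Pla2g2e at 0.117 and 0.169 FPKM. In the control library the most abundant neighbour was at 1.01% of the level of Pla2g5. Pla2g3 stood at 0.0844 and 0.0716 FPKM, Pla2g1b was listed at 0 and 0.0574 FPKM, Pla2g12b at 0.0184 FPKM and 0, and the remaining 2 secreted genes at 0 in both libraries. Among the latter, Pla2g2a, which C57BL/6 mice carry as a defective gene, lies inside Pla2g5 on the opposite strand (chr4:138831857-138835186) and contributed no FPKM to either library. None of the 2240 windows of 50 bases, the read length, in the Pla2g5 transcript was found within 2 mismatches in another Pla2g gene.

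Ces1d encodes a carboxylesterase also known as triacylglycerol hydrolase, an enzyme of the endoplasmic reticulum and lipid droplet. It lies on the minus strand at chr8:93166068-93197838 (GRCm38) in a tandem array of carboxylesterase genes. Ces1d was measured at 56.7 FPKM in the Med1fl/fl library and at 0.497 FPKM in the csMed1-/- library. The ratio was 0.00876, or 114-fold lower, with a log2 ratio of -6.83. That fold rests on a csMed1-/- value under 1 FPKM: with a pseudocount of 1 FPKM it was 38.5-fold, and a filter of 1 FPKM in both libraries left the gene out. Of all kept genes 8 had a lower ratio, and of the 1771 kept genes within 2-fold of its control level 0 did. Genes listed at 0 in either library are not among those counted. Ces1d and Pla2g5 started from close control levels, at rank 1550 and 1596, and Ces1d ended lower, at rank 11037. The 3 genes with the nearest pair of levels were Asb14 (48.4 and 0.847 FPKM), the amino acid transporter gene Slc36a2 (35.4 and 0.731 FPKM) and Dbh, the dopamine beta-hydroxylase gene (22.5 and 0.391 FPKM).

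**Figure D2:**
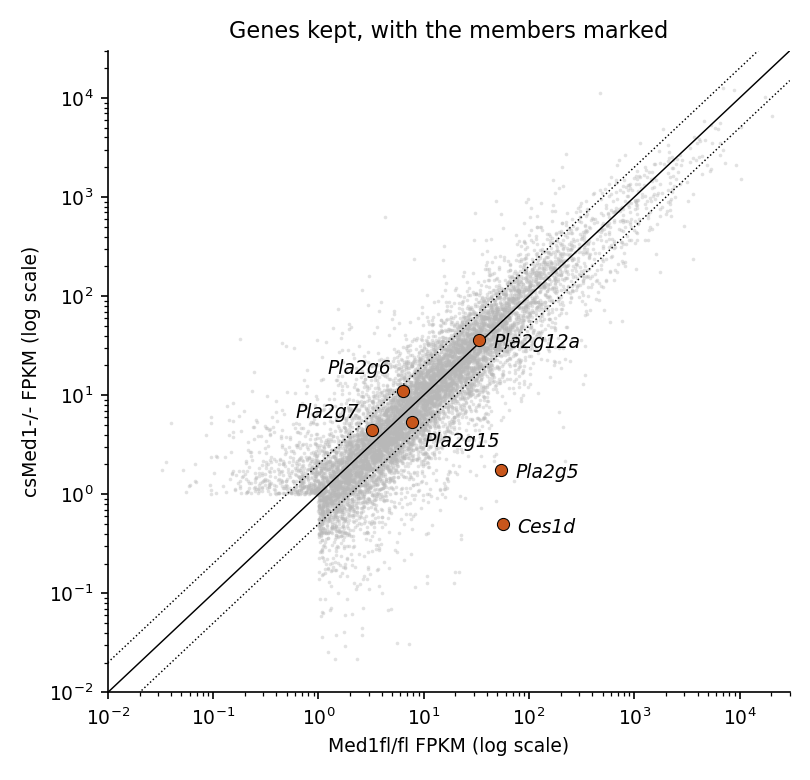
FPKM of the 10489 kept genes in the csMed1-/- library against the Med1fl/fl library, both axes log scaled, with the solid line at equal levels and dotted lines at 2-fold. The 6 kept genes are marked, and Ces1d (56.7 and 0.497 FPKM) and Pla2g5 (54.3 and 1.78 FPKM) lie below the lower dotted line while the other 4 lie between the dotted lines.

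Ces1d was the dominant carboxylesterase of the control heart. It made up 93.9% of the summed FPKM of the 18 carboxylesterase genes in the files, and 23.9% in csMed1-/-. The sum over these genes was 60.3 FPKM in control and 2.08 FPKM in csMed1-/-, a ratio of 0.0345. Ces2g was the other kept gene of the family, at 1.61 and 1.01 FPKM (log2 ratio -0.67), and made up 48.5% of the csMed1-/- sum.

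The neighbours of Ces1d in the array were listed at much lower levels. Ces1e, 3380 bases away, was at 0.0827 FPKM in control and 0.0055 FPKM in csMed1-/-, and Ces1c, 34785 bases away, was at 0.195 and 0.0383 FPKM. Ces1f was at 0.123 and 0.0117 FPKM, Ces1g at 0.143 and 0.00523 FPKM, Ces1b at 0.307 FPKM and 0, and Ces1a at 0 in both. The Ces1 genes listed above 0 were at 0.146% to 0.542% of the level of Ces1d in control, and all 5 were lower in csMed1-/-, with a sum of 0.851 and 0.0607 FPKM. Ces5a, at the end of the array, was listed at 0.0125 FPKM in control and at 0.279 FPKM in csMed1-/-.

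Ces1 genes are recent duplicates, so their reads can be hard to assign. Of the 1955 windows of 50 bases in the Ces1d transcript, 25 (1.28%) occur exactly in Ces1b, Ces1f or Ces1g, and 208 (10.6%) lie within 2 mismatches of another carboxylesterase. In the other direction, 1.65% to 6.35% of the windows of a Ces1 gene lie within 2 mismatches of Ces1d. The low values of the other Ces1 genes are therefore uncertain, and how much of them came from Ces1d reads was not tested. For the other 6 genes of the set, 0 windows occur exactly in another gene.

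Apart from Ces2g, the carboxylesterases outside the array were listed under 1 FPKM in both libraries. Ces2e was at 0.999 FPKM in control and 0.162 FPKM in csMed1-/-, and Ces3b at 0.0869 and 0.00715 FPKM. Ces2a (0.0389 FPKM), Ces2b (0.00965 FPKM) and Ces2d-ps (0.0476 FPKM) had a value in control and were listed at 0 in csMed1-/-. Ces2c (0.00686 FPKM), Ces2f (0.0441 FPKM) and Ces3a (0.0141 FPKM) had a value in csMed1-/- and were listed at 0 in control, and Ces4a was listed at 0 in both. No fold is given for these genes.

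Pla2g4a encodes the cytosolic phospholipase A2 alpha, the arachidonate-selective enzyme that feeds eicosanoid synthesis in many cells. It was the least abundant of the 7 genes, at 0.108 FPKM in the Med1fl/fl library and 0.162 FPKM in the csMed1-/- library, and was not kept. Its relatives Pla2g4e, an enzyme that makes N-acyl phosphatidylethanolamines, and Pla2g4b were more abundant in control, and both were lower by more than 2-fold. Pla2g4e was at 2.72 and 0.850 FPKM (log2 ratio -1.68). Pla2g4b was at 1.45 and 0.350 FPKM (log2 ratio -2.05), and as it overlaps the coding gene Gm28042 on the same strand its reads could be shared. Pla2g4c was listed at 0.00401 FPKM and 0, Pla2g4d at 0 and 0.0360 FPKM, and the last member of this group at 0 in both. The summed level of the 6 cytosolic genes was 4.28 FPKM in control and 1.4 FPKM in csMed1-/-.

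Pla2g6 encodes the calcium-independent phospholipase A2 beta, which takes part in remodelling of membrane phospholipids, cardiolipin among them. It was measured at 6.43 FPKM in the Med1fl/fl library and 11.0 FPKM in the csMed1-/- library, with a log2 ratio of 0.78, the highest of the 6 kept genes and short of 2-fold. Of the 3305 kept genes within 2-fold of its control level, 2822 had a lower ratio. An antisense transcript, Gm20420, overlaps it, and whether strand was used in counting is not given in the sources used here. Among the patatin-like lipases of the same fold, Pnpla2, the adipose triglyceride lipase gene, was at 391 and 586 FPKM (log2 ratio 0.58). Pnpla8, the mitochondrial phospholipase A2 gamma gene, was at 1.14 and 1.25 FPKM, Pnpla6 at 3.47 and 5.53 FPKM and Pnpla7 at 10.1 and 5.50 FPKM. All 5 kept genes of this group stayed within 2-fold. Pnpla3 (0.60 and 0.278 FPKM), Pnpla1 (0.0216 and 0.0182 FPKM) and Pnpla5 (0.0585 FPKM and 0) were not kept.

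Pla2g7 encodes a secreted PAF acetylhydrolase that travels with lipoproteins and is made mainly by macrophages. Its level was 3.22 FPKM in the Med1fl/fl library and 4.46 FPKM in the csMed1-/- library, a log2 ratio of 0.47. An antisense transcript, 1700071M16Rik, overlaps Pla2g7, so the limit on strand given for Pla2g6 holds here too. The 8 macrophage markers analysed summed to 325 and 361 FPKM and all 8 stayed within 2-fold, with a median log2 ratio of 0.36. They ran from -0.91 (Emr1, 3.33 and 1.77 FPKM) to 0.88 (Mrc1, their lowest marker in control, 0.566 and 1.04 FPKM). Their part in the level of Pla2g7 was not tested. The intracellular PAF acetylhydrolases lay on both sides of equal levels. Pafah1b3, a catalytic subunit, was at 3.81 and 10.4 FPKM (log2 ratio 1.45), whereas Pafah2, which hydrolyses oxidised phospholipids, was at 7.06 and 3.51 FPKM (log2 ratio -1.01). Pafah1b1, the regulatory subunit also called Lis1, was at 15.3 and 11.1 FPKM, and Pafah1b2, the other catalytic subunit, at 4.24 and 6.85 FPKM.

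Pla2g15 encodes the lysosomal phospholipase A2, which degrades phospholipids at acid pH. It stood at 7.81 FPKM in the Med1fl/fl library and at 5.42 FPKM in the csMed1-/- library, with a log2 ratio of -0.53 inside the 2-fold range. Its relative Lcat, the plasma enzyme that esterifies cholesterol, was at 1.20 and 0.691 FPKM. Among the lysosomal and other phospholipases A2 the most abundant were Prdx6, a peroxiredoxin, at 323 and 448 FPKM, and Pla2g16, an acyltransferase-like phospholipase, at 202 and 328 FPKM, with log2 ratios of 0.47 and 0.70. Of the summed FPKM of the 21 Pla2g genes, Pla2g16 made up 64.7% in control and 84.4% in csMed1-/-, Pla2g5 17.4% and 0.457%, Pla2g12a 10.7% and 9.27%, and Pla2g6 2.06% and 2.84%. That sum was 313 FPKM in control and 389 FPKM in csMed1-/-. Without Pla2g16, which set its direction, the other 20 genes summed to 110 FPKM in control and 60.6 FPKM in csMed1-/-, a ratio of 0.548.

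**Figure D3:**
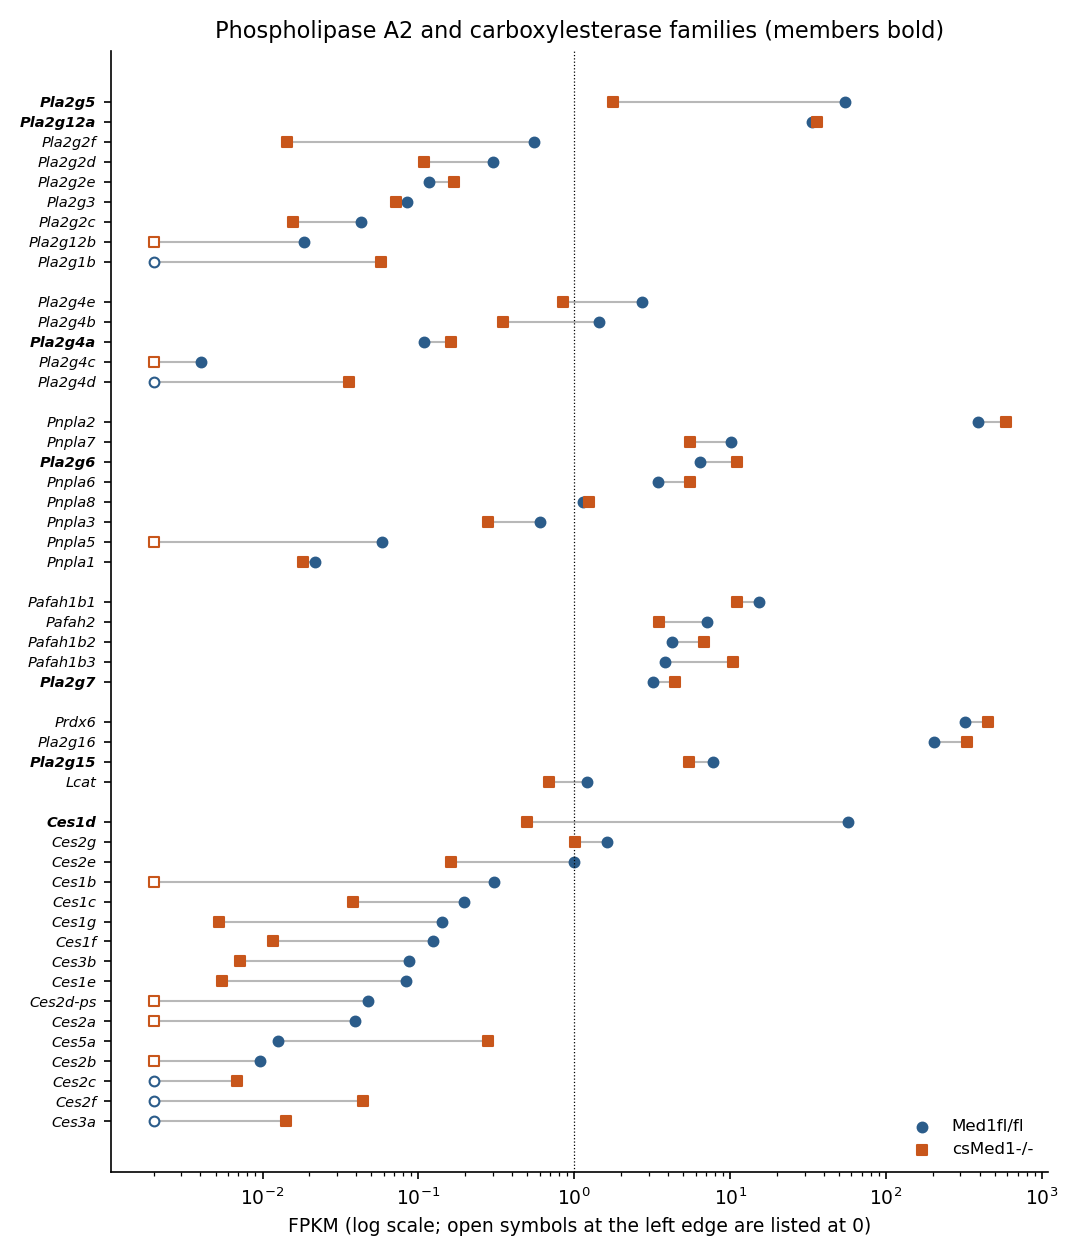
FPKM (log axis) of the phospholipase A2 and carboxylesterase genes listed above 0 in at least 1 library, grouped by family from secreted enzymes at the top to carboxylesterases at the bottom, with circles for Med1fl/fl, squares for csMed1-/- and open symbols for values listed at 0. The long bars that cross the dotted line at 1 FPKM or start far above it belong to Pla2g5 (54.3 to 1.78 FPKM) and Ces1d (56.7 to 0.497 FPKM), while Prdx6, Pla2g16 and Pnpla2 stay at 202 FPKM or more in both libraries.

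In the families without the 7 genes, 45 genes were in the files and 14 were kept. Of these 3 (21.4%) were lower by more than 2-fold (Pla2g4b, Pla2g4e and Pafah2) and 1 (7.14%) was higher (Pafah1b3), beside 18.0% and 13.6% of all kept genes. Pafah2 was only just past the threshold, at a log2 ratio of -1.01. The median log2 ratio of the 14 genes was -0.17 against -0.07 over all kept genes. The lowest log2 ratio among these 14 relatives was -2.05, that of Pla2g4b, beside -4.93 for Pla2g5 and -6.83 for Ces1d.

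The genes that act on the substrates and products of phospholipases A2 were taken from 8 lists with 98 genes outside the set, of which 67 were kept. Of these, 12 (17.9%) were lower and 8 (11.9%) were higher by more than 2-fold, close to the 18.0% and 13.6% of all kept genes, and the median log2 ratio was 0.02. Counts within the single lists below are to be set against these shares.

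Annexins, calcium-dependent proteins that cover membrane phospholipid and were first described as phospholipase A2 inhibitors, were represented by 3 genes of the family in a list chosen with earlier results known. All 3 were higher by more than 2-fold, as were 13.6% of all kept genes. Anxa1 was at 4.46 FPKM in control and 11.3 FPKM in csMed1-/- (log2 ratio 1.34). Anxa2 was at 120 and 338 FPKM (a ratio of 2.82) and Anxa5 at 64.7 and 161 FPKM (log2 ratio 1.32). Plaa, a gene named as a phospholipase A2 activator, had a log2 ratio of 0.24. The phospholipase A2 receptor gene Pla2r1, whose product binds secreted phospholipases A2, was at 0.191 and 0.197 FPKM and was not kept. Fibroblast markers summed to 503 FPKM in control and 1193 FPKM in csMed1-/-, with 4 of 8 higher and 1 lower by more than 2-fold. Of 8 smooth muscle and pericyte markers, 3 were higher and 2 lower past that threshold. Their ends were Cnn1 at 4.32 and 622 FPKM and Smtn at 119 and 41.1 FPKM. Their part in the annexin values was not tested.

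Of the 13 kept enzymes that make or degrade eicosanoids, 2 were higher and 2 were lower by more than 2-fold. Ptgis, the prostacyclin synthase gene, was at 30.2 FPKM in control and 104 FPKM in csMed1-/- (log2 ratio 1.79), and Lta4h, which makes leukotriene B4, was at 21.4 and 46.5 FPKM (1.12). The lipoxygenase genes Alox12 (4.15 and 1.60 FPKM, log2 ratio -1.38) and Alox5 (4.69 and 2.17 FPKM, log2 ratio -1.11) were on the lower side. The cyclooxygenase gene Ptgs1 was at 5.84 and 7.22 FPKM, and the inducible Ptgs2 was listed at 0 and 0.0455 FPKM. Within 2-fold the log2 ratio ran from -0.80 (Ephx2, an epoxide hydrolase that degrades epoxyeicosatrienoic acids, 313 and 180 FPKM) to 0.47 (Ephx1, 55.9 and 77.6 FPKM). Of 13 receptor genes for these mediators 2 were kept, both within 2-fold, among them Tbxa2r, the thromboxane receptor gene, at 8.42 and 13.6 FPKM. Ptafr, the PAF receptor gene, was at 0.995 and 0.339 FPKM and was not kept.

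Enzymes that put an acyl chain on a lysophospholipid, whether or not a phospholipase A2 made it, had a median log2 ratio of -0.36 over 13 kept genes. Of these, 3 (23.1%) were lower and none higher by more than 2-fold, beside 18.0% and 13.6% of all kept genes. Lclat1, a lysocardiolipin acyltransferase gene, was at 33.7 FPKM in control and 8.15 FPKM in csMed1-/- (log2 ratio -2.05), Lpcat1 at 6.47 and 2.72 FPKM (-1.25) and Agpat2, which overlaps Egfl7, at 71.1 and 30.4 FPKM (-1.22). The list ended at 0.47 with Agpat4 (3.42 and 4.72 FPKM). Of 10 kept lysophospholipases and related enzymes, Gpcpd1, which hydrolyses glycerophosphocholine, was at 15.8 and 1.13 FPKM (log2 ratio -3.81) and Enpp2, the gene of the lysophospholipase D autotaxin, at 1.98 and 0.755 FPKM (-1.39), while 0 were higher past that threshold and the list ended at 0.96 with Lyplal1 (1.76 and 3.43 FPKM).

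Cardiolipin, the phospholipid of the inner mitochondrial membrane, is remodelled by deacylation, in which Pla2g6 and Pnpla8 take part, and by reacylation. Of the 8 genes of its synthesis and remodelling, Lclat1 and Hadha, whose product has both a beta-oxidation and a monolysocardiolipin acyltransferase activity (540 and 141 FPKM, log2 ratio -1.94), were lower by more than 2-fold. Taz, the tafazzin gene, which overlaps Dnase1l1, was at 29.7 and 23.6 FPKM, and the ends of the range within 2-fold were Crls1, the cardiolipin synthase gene, at 5.36 and 2.95 FPKM and Pgs1, which overlaps Dnah17, at 20.2 and 38.5 FPKM. The deacylating genes of this list, Pla2g6 (log2 ratio 0.78) and Pnpla8 (0.13), stayed within 2-fold, as did Taz (-0.33).

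Ces1d acts on neutral lipid, and 4 of 10 kept neutral lipid hydrolase genes and their regulators were lower by more than 2-fold. Lpl, the lipoprotein lipase gene, was at 129 FPKM in control and 23.0 FPKM in csMed1-/- (log2 ratio -2.49), and Nceh1, a neutral cholesterol ester hydrolase, was at 16.0 and 4.07 FPKM (-1.97). G0s2, an inhibitor of the Pnpla2 lipase that overlaps Lamb3, was at 83.5 and 31.5 FPKM (-1.41), and Ddhd2, a brain-rich triglyceride hydrolase, at 1.97 and 0.784 FPKM (-1.33). Ddhd1, a phospholipase A1 gene, was at 1.02 and 2.11 FPKM (1.05). The main intracellular triglyceride lipases were within 2-fold, with Pnpla2 at a log2 ratio of 0.58 and Lipe, the hormone-sensitive lipase gene, at 48.1 and 49.8 FPKM. Of the phospholipases C and D, which cut the headgroup side of the molecule, none of 10 kept was lower by more than 2-fold. Pld3 (34.9 and 91.6 FPKM, log2 ratio 1.39) and Plcd3 (11.9 and 24.1 FPKM, 1.01) were higher, and the lower end was Plce1 at 1.83 and 1.10 FPKM.

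**Figure D4:**
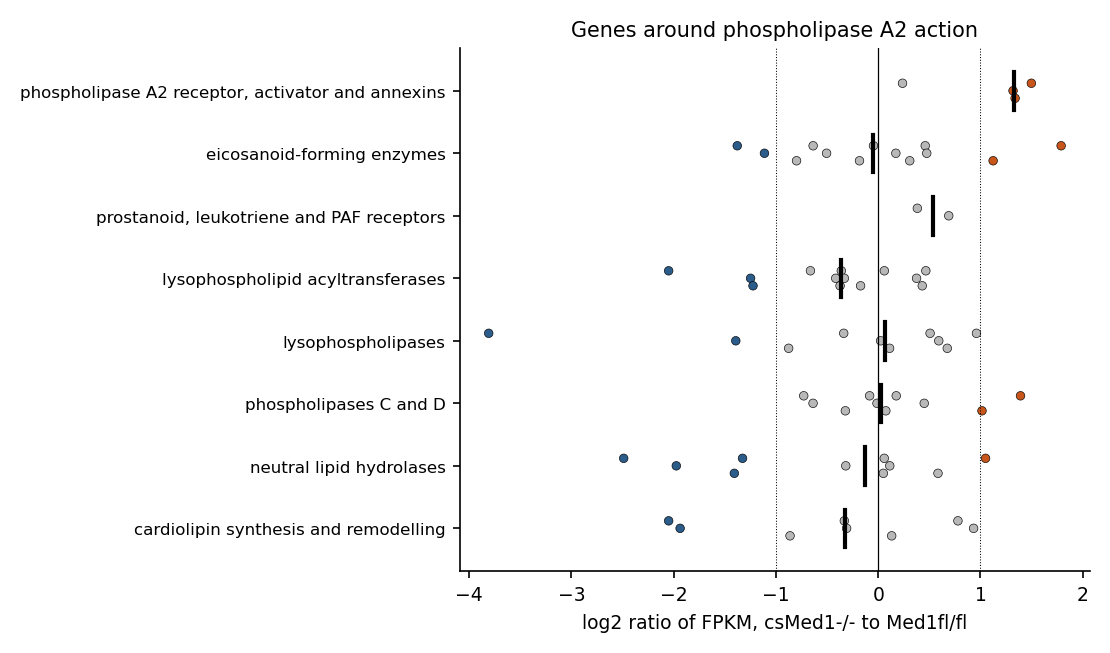
Log2 ratio of FPKM, csMed1-/- to Med1fl/fl, of each kept gene in the 8 lists around phospholipase A2 action, 1 point per gene, with vertical bars at list medians and dotted lines at 2-fold. Points past 2-fold are blue when lower and orange when higher, and the 3 annexins lie right of the upper dotted line while the acyltransferases have 3 points left of the lower line and a median of -0.36.

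Ces1d is abundant in liver and fat, and Pla2g5 and Pla2g7 are also expressed by cells other than cardiomyocytes, so markers of other cell types were examined in both libraries. Of the 9 adipocyte markers, Cfd, Retn, Lep and Ucp1 were listed at 0 in both libraries, and Adipoq, Plin1 and Cidec were listed at 0 in control and at no more than 0.0101 FPKM in csMed1-/-. These 7 values were at or near 0 in both libraries, with the limit on exact zeros given for Actc1. Fabp4 (182 and 143 FPKM) and Cidea (37.6 and 81.4 FPKM), the remaining 2 of the list, are also expressed by endothelium or cardiac muscle. The 8 hepatocyte markers were low in control, from 0.192 FPKM (Fgb) to 13.2 FPKM (Apoa2), with Alb at 6.23 and 0.746 FPKM and Ahsg at 5.87 and 53.5 FPKM. Past 2-fold, 3 of the 6 kept lay on the lower side and 1 on the higher side, with a median log2 ratio of -1.15. Their sum was 29.5 FPKM in control and 61.4 FPKM in csMed1-/-, but without Ahsg it was 23.6 and 7.84 FPKM, and their part in the level of Ces1d was not tested.

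Endothelial markers summed to 597 and 553 FPKM, with 2 of 8 lower and 1 higher by more than 2-fold. Smooth muscle and pericyte markers summed to 798 and 1159 FPKM with 2 lower and 3 higher, and neutrophil and mast cell markers to 5.57 and 12.2 FPKM with 1 lower and 3 higher of 4 kept. Cardiomyocyte markers, with a median log2 ratio of -2.19 and a lowest value of -3.78 (Pln), lay on the same side as Pla2g5 (-4.93) and Ces1d (-6.83), and Ryr2, the cardiac ryanodine receptor gene, was at 84.6 and 8.70 FPKM. How far the level of cardiomyocyte RNA as a whole took part in the values of Pla2g5 and Ces1d was not tested. Myh6 was not analysed here.

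**Figure D5:**
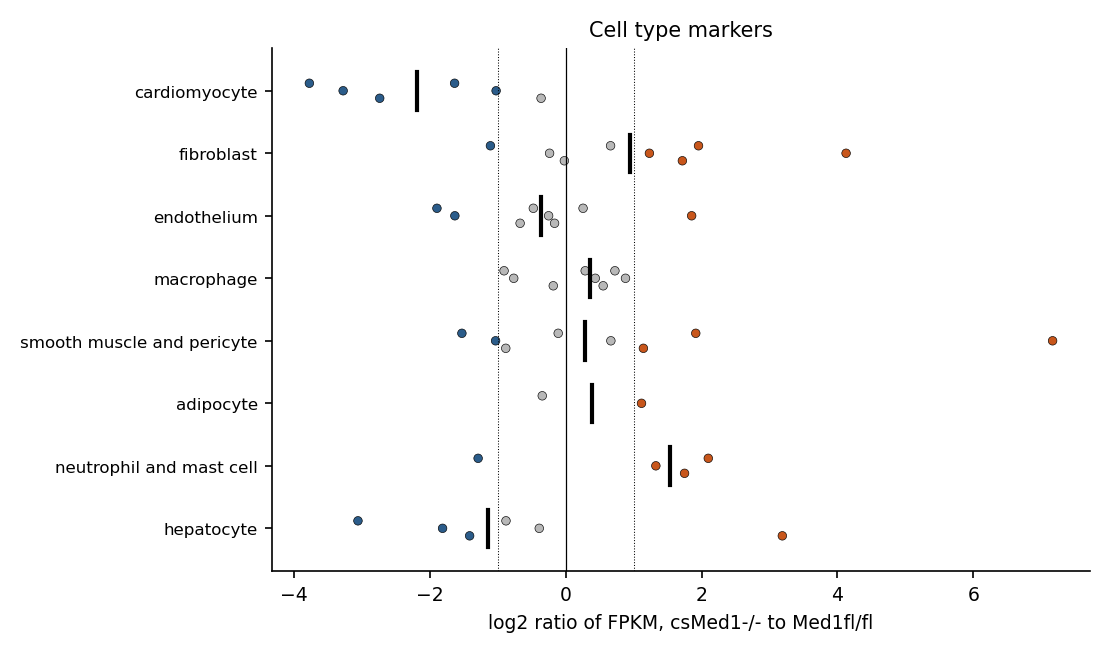
Log2 ratio of FPKM, csMed1-/- to Med1fl/fl, of each kept marker gene of 8 cell types, 1 point per gene, with vertical bars at list medians and dotted lines at 2-fold. Cardiomyocyte markers lie to the left (median -2.19), all 8 macrophage markers lie between the dotted lines, and Cnn1 (4.32 and 622 FPKM) is the point farthest to the right.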

How the data were processed

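Poly(A) RNA of 1 heart pool per genotype was read as 50 nt single-end directional reads. The authors mapped reads with TopHat v2.0.8b to mm10, and their methods give Cufflinks and cuffdiff v2.1.1 for the expression of known UCSC genes, taken here as the origin of the deposited FPKM values. The submitters' processing notes also list STAR 2.4.0h, Bowtie2 and a count-based tool, with no role. The library scaling of cuffdiff and the use of strand in counting are not given in the sources used here. Each library has 23424 rows, and rows that share a symbol, as for 412 of 22882 symbols, were summed. Each of the 7 genes stands on 1 row.

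Ratios were taken without a pseudocount over genes that neither library listed at 0 and whose higher value reached 1 FPKM, and counted past 2-fold. With 1 library per genotype no test was made. The computation was tested on simulated data. The 7 genes and all lists were chosen with earlier results of these data known. Named are the 7 genes, all listed relatives, up to 4 genes per direction past 2-fold in each list with the ends of the range within 2-fold, the 3 genes nearest to Pla2g5 and to Ces1d, Med1 and cell type markers; abundant genes within 2-fold, Ptgs2, Ptafr, Pla2r1, Plaa, Ptgs1, Taz and Lipe were added after their values were seen. Gene positions are from GENCODE M21 (GRCm38), promoters from RefSeq (GRCm38.p6). Alternatives were pseudocounts of 0.1 and 1, other filters, 3 other scalings, the highest row per symbol and a 4-fold threshold. Python 3.11.15, numpy 2.4.6, pandas 2.3.3 and matplotlib 3.10.9 were used. A result on 1 receptor gene is not reported here.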

Additional observations from a re-analysis of the deposited data

How the results depend on the processing

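Under 10 alternatives, 62 of 80 counts stayed within 1.5-fold and the log2 ratios of the 6 kept genes of the set kept their sign wherever they were computed. Log2 ratios ran from -4.97 to -4.32 for Pla2g5 and from -6.87 to -5.27 for Ces1d, with the value nearest 0 from a pseudocount of 1 FPKM. With that pseudocount 3 family genes, rather than 5, were lower by more than 2-fold. With a pseudocount of 0.1, or with log2 ratios centred on their median, 4 family genes were. With no filter on low values 3182 genes were lower and 2504 higher, with 15 and 2 family genes and 22 lower genes in the lists around phospholipase A2 action. At 1 FPKM or more in both libraries Ces1d was left out, since it stood at 0.497 FPKM in csMed1-/-, so 1 of the 7 genes and 2 family genes were lower. At 10 FPKM in either library 885 genes were lower and 821 higher, with 2 family genes lower, 7 list genes lower and 7 higher, and the median log2 ratio of all kept genes was 0.06 in place of -0.07. Past 4-fold, 539 genes were lower and 453 higher, with 3 family genes lower and 0 higher and 3 list genes lower and 0 higher. No paired analysis was possible because each genotype has 1 library. Without read counts, depth sets an unknown limit on values under 1 FPKM, such as those of Pla2g4a and of the Ces1 genes next to Ces1d.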
